A study of Homo sapiens with 4 samples.

Results

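SR proteins, hnRNP proteins and related RNA-binding proteins were followed in BLaER1 cells, taking the rows of the deposited expression table whose gene symbol was one of 38 listed regulators. All 38 were found, each as 1 row, among 58302 rows in all. BLaER1 is a human B-leukaemia line, kept as a single clone, that carries the myeloid transcription factor C/EBPα fused to an oestrogen receptor domain, so that oestradiol turns the cells into macrophage-like cells. The differentiated group held 2 libraries from BLaER1 cells kept for 5 to 6 days with 10 ng/ml IL-3, M-CSF (CSF-1) and 100 nM oestradiol. The undifferentiated group held 2 libraries from BLaER1 cells, and both groups carry the same inducible fusion. The labels do not say that the libraries of a group came from separate cultures, so a p-value here reflects only how far these libraries spread, and that spread may be technical.

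SR proteins carry RNA-recognition domains and a tail rich in arginine and serine. They bind exonic enhancers and help the spliceosome to recognise exons. hnRNP proteins coat nascent transcripts and often repress nearby splice sites, so that the balance of both families decides which exons are kept. PTB, RBFOX, MBNL, CELF and QKI proteins add cell-type-specific control, depending on where they bind relative to an exon. Many of these proteins also control their own transcripts by splicing them into forms that are degraded, and several have further roles in mRNA export, stability and translation.

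In differentiated cells the transcripts of most of these regulators made up a smaller part of the RNA. Of 37 regulators that could be tested, 20 were lower and 2 were higher in differentiated cells. The hnRNP genes HNRNPH3, HNRNPM and HNRNPA1 fell most, by 8.68-fold to 10.4-fold. QKI and MBNL2 were the 2 that rose. Over all 10180 genes tested, 22.8% were called lower and 18.6% higher. A gene was called where limma, a linear model fitted across all genes on log2(TPM + 1), gave a Benjamini-Hochberg adjusted p below 0.05. The SE of limma joins the variance of a gene with that of the other tested genes. It is thus not the spread of that gene's libraries alone. TPM is a transcript level that takes gene length into account and states each gene only as a part of its whole library. Log2 differences are differentiated minus undifferentiated, computed after adding 1 TPM, so that changes of low genes come out too small, while folds are ratios of mean TPM.

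Promoter sequences are shown for the 3 regulators with the largest falls among those with 1 window in RefSeq, and for MBNL2, which rose. Each window runs from 250 bases before to 50 bases after an annotated gene start, in RefSeq on GRCh38.p14, and is written 5′ to 3′ on the gene's strand. Capitals mark matches on either strand to the E-box CACGTG, the GC box GGGCGG, the CCAAT box, the ETS site CCGGAAG, the NRF1 core GCATGCGC, the TATA box TATAAA or the YY1 core ATGGCGG.
HNRNPM promoter, chr19:8444725-8445024, plus strand: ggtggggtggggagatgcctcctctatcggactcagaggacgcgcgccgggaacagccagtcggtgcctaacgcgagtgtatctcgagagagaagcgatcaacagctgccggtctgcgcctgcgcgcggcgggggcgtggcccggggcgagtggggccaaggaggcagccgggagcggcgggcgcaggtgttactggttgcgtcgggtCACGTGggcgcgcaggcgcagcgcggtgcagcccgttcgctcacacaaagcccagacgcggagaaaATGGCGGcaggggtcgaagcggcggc
HNRNPA2B1 promoter, chr7:26200697-26200996, minus strand: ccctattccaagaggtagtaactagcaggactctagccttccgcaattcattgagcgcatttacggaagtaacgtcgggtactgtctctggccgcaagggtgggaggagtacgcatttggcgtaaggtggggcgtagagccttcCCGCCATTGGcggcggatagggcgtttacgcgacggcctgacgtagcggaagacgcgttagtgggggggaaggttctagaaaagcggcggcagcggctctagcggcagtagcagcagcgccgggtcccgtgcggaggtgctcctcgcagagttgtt
HNRNPA3 promoter, chr2:177212544-177212843, plus strand: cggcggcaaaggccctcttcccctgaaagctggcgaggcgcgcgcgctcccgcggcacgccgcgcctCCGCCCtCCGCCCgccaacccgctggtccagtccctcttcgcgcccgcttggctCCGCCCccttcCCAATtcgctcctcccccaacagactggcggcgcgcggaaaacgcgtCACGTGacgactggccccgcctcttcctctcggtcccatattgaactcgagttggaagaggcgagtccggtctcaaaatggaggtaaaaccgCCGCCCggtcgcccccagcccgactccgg
MBNL2 promoter, chr13:97141584-97141883, plus strand: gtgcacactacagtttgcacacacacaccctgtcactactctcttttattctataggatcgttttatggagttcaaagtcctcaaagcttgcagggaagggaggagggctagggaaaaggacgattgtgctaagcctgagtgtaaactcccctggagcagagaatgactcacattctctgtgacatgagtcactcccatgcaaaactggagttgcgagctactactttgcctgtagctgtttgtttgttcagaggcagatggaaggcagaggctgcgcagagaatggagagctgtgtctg
MBNL2 promoter, chr13:97222083-97222382, plus strand: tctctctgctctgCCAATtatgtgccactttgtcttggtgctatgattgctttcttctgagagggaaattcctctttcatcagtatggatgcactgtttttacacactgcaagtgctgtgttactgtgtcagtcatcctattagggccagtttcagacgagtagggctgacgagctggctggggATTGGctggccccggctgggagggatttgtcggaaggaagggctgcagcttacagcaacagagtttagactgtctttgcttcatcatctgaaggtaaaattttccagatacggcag
The HNRNPM window held an E-box from 42 bases before the gene start and a YY1 core from position 24 after it. In the HNRNPA2B1 window a CCAAT box and a YY1 core, both on the reverse strand, shared bases. HNRNPA3 had 1 E-box, 4 GC boxes and 1 CCAAT box. The first MBNL2 window had no match to any of the 7 motifs, and the second held 2 CCAAT boxes.

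RefSeq windows matched 33 of the 38 regulators, with 62 windows in all. QKI, SRSF2, RBFOX2, TRA2A and HNRNPA1 were not matched. The median GC share of the 62 windows was 63.7%, beside 64.7% for the 11147 windows of tested genes and 58.7% for all 35116 windows. The YY1 core was in 17.7% of the regulators' windows, beside 10.5% of windows of tested genes and 5.55% of all windows. ETS sites were in 11.3% of the regulators' windows, against 18.7% of windows of tested genes and 10.3% of all windows. The E-box was in 11.3%, 9.76% and 7.26% of these same sets, the CCAAT box in 38.7%, 35.2% and 34.6%, and the GC box in 58.1%, 66.6% and 45.0%. For the NRF1 core the shares were 4.84%, 5.01% and 3.05%, and for the TATA box 11.3%, 6.11% and 11.5%. These are matches of letters in a window. Windows of 1 gene can overlap each other.

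The deposited TPM gave no read counts, so the depth of a library was unknown and no counting error could be set on a value. Protein-coding genes took 12.2% and 13.5% of all TPM in the differentiated libraries, against 23.0% and 15.6% in the undifferentiated libraries. Macrophage markers were higher in differentiated cells for 8 of 8 genes, with sums of 1002 and 1186 TPM against 14.4 and 9.82 TPM. B-lineage markers were lower for 8 of 8, with sums of 17.0 and 16.0 TPM against 197 and 135 TPM. Of the T-cell list, CD3D and CD3E were at 0 in all 4 libraries, while TRAC had 3.82 and 6.61 TPM in differentiated and 110 and 51.5 TPM in undifferentiated libraries. The erythroid, fibroblast and endothelial lists summed to at most 7.95 TPM in any library. The part of these marker genes' cells in the results was not tested. In bulk RNA a smaller number of cells of a type and less RNA per cell cannot be told apart.

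The 38 regulators summed to 800.1 and 804.9 TPM in the differentiated libraries, against 3702 and 2594 TPM in the undifferentiated libraries. As a share of protein-coding TPM, which does not depend on how much non-coding RNA a library held, they made up 0.656% and 0.597% in differentiated cells and 1.61% and 1.66% in undifferentiated cells. Both differentiated libraries lay below both undifferentiated ones on either measure. Without HNRNPA1, the most abundant of them in every library, the shares were 0.561% and 0.519% against 1.14% and 1.12%. The composition of the set differed as well. hnRNP genes made up 63.6% and 62.4% of its TPM in differentiated libraries, against 81.3% and 84.9% in undifferentiated libraries, while SR and TRA2 genes made up 17.4% and 17.8% against 13.5% and 10.7%.

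**Figure D1:**
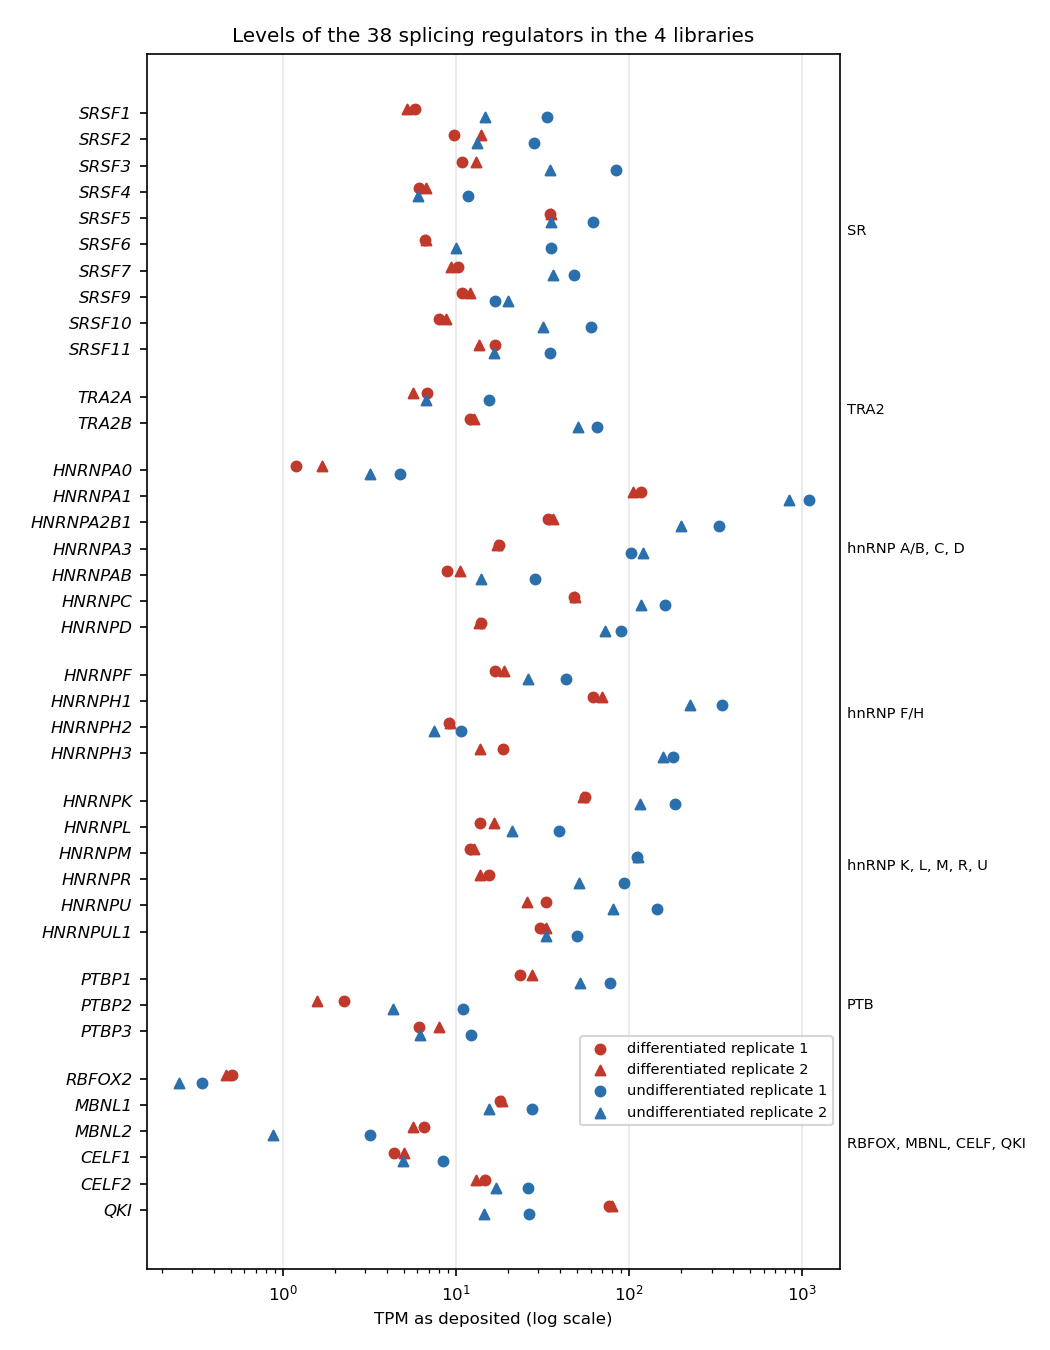
Level of each of the 38 regulators in each library, in TPM on a log axis, grouped by protein family; red marks are the 2 differentiated and blue marks the 2 undifferentiated libraries, with circles for replicate 1 and triangles for replicate 2. Most red pairs lie left of the blue pairs and close together, HNRNPA1 is rightmost in every library, and QKI, MBNL2 and RBFOX2 have red marks to the right of blue.

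The plot of levels by library shows 27 tested regulators with both differentiated libraries below both undifferentiated libraries, 2 with both above, and 8 in which the stages overlapped. Over all tested genes 39% lay wholly below and 31% wholly above. All 22 called regulators were among those without overlap, and 7 regulators that were not called also did not overlap. The 2 differentiated libraries were close to each other, with a median log2 difference of -0.04 between replicates 1 and 2 over the tested regulators. The undifferentiated libraries were further apart: replicate 1 was above replicate 2 for 34 of 37 regulators, with a median log2 difference of 0.71, beside 0.50 over all tested genes. For 24 of the 37, 21 of the called ones among them, the difference between stages was larger than that between the undifferentiated libraries. This count was not made over all tested genes, so it is not read as a trait of the regulators.

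Of the SR proteins, 5 of 10 fell and none rose. SRSF10, a splicing repressor when it is dephosphorylated after heat shock, had 7.94 and 8.75 TPM in differentiated libraries, against 60.4 and 31.8 TPM in undifferentiated libraries. SRSF3, the smallest classical SR protein, which also takes part in mRNA export, had 10.9 and 13.1 TPM against 84.6 and 35.0 TPM. For SRSF7, an export adaptor with a zinc knuckle, the values were 10.3 and 9.35 TPM against 48.3 and 36.3 TPM. In each of these genes the stages were well apart, and the undifferentiated pair spread more than the differentiated pair. SRSF1, the founding SR protein, had 5.77 and 5.25 TPM in differentiated and 33.8 and 14.7 TPM in undifferentiated libraries. SRSF6, which binds exonic enhancers, had 6.67 and 6.74 TPM against 35.6 and 10.0 TPM, so that undifferentiated replicate 2 lay much nearer to the differentiated pair than to its own replicate. The log2 differences were -2.27 ± 0.40 for SRSF10, -2.10 ± 0.44 for SRSF3, -1.99 ± 0.37 for SRSF7, -1.84 ± 0.43 for SRSF1 and -1.38 ± 0.50 for SRSF6 (SE, n = 2 libraries a group). Their limma adjusted p-values were 0.000596, 0.00181, 0.000831, 0.00407 and 0.0418 in that order. Without undifferentiated replicate 1 SRSF6 was not called (adjusted p = 0.122). Leaving out differentiated replicate 1 or 2 ended all 5 calls, with adjusted p from 0.0869 to 0.396 and from 0.0836 to 0.391.

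The other 5 SR genes did not pass the test. SRSF9, a short SR protein, had 10.9 and 12.1 TPM in differentiated libraries, against 16.9 and 19.9 TPM in undifferentiated libraries, a log2 difference of -0.63 (adjusted p = 0.191) without overlap. SRSF5, whose transcript was the most abundant of the 10 in differentiated libraries, had 34.9 and 35.4 TPM against 62.0 and 35.6 TPM. Its undifferentiated replicate 2 was thus almost at the differentiated level. SRSF2, the SR protein often mutated in myeloid neoplasms, had 9.71 and 13.97 TPM against 28.4 and 13.2 TPM and overlapped between stages. SRSF11 had 16.9 and 13.7 TPM against 35.2 and 16.7 TPM, and SRSF4 had 6.09 and 6.70 TPM against 11.8 and 6.02 TPM. The log2 differences of SRSF2, SRSF4, SRSF5 and SRSF11 ranged from -0.69 to -0.36, with adjusted p from 0.221 to 0.516. Without undifferentiated replicate 2 these 4 genes were called lower (adjusted p from 0.0153 to 0.0377), and without undifferentiated replicate 1 SRSF9 was (adjusted p = 0.0492). With the GC trend removed SRSF2 (adjusted p = 0.0291) and SRSF9 (adjusted p = 0.02) were called lower as well.

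Of the TRA2 proteins, splicing activators related to the fly transformer-2 protein, TRA2B fell. It had 12.1 and 12.7 TPM in differentiated libraries, against 65.3 and 51.0 TPM in undifferentiated libraries. That is a log2 difference of -2.13 ± 0.36 (SE, n = 2 libraries a group, limma adjusted p = 0.000435), and the adjusted p was 0.0742 without differentiated replicate 1 and 0.0676 without differentiated replicate 2. Its paralog TRA2A had 6.81 and 5.65 TPM against 15.6 and 6.70 TPM, with overlapping stages and a log2 difference of -0.65 (adjusted p = 0.252; 0.013 without undifferentiated replicate 2).

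Of the hnRNP A/B, C and D genes, which include HNRNPA1, 6 of 7 fell. HNRNPA1 (ENSG00000135486), a repressor of exon inclusion that also packages mRNA, had 117 and 106 TPM in differentiated libraries, against 1089 and 841 TPM in undifferentiated libraries. HNRNPA2B1, which binds transcripts for transport and sorting as well as for splicing, had 34.0 and 36.3 TPM against 329 and 201 TPM. The related HNRNPA3 had 17.9 and 17.3 TPM against 103 and 121 TPM. The stages were far apart in all of these, and the undifferentiated libraries spread more for HNRNPA2B1 than for HNRNPA3. HNRNPD, known as AUF1 for its binding to AU-rich elements of unstable mRNAs, had 13.96 and 13.64 TPM against 90.3 and 72.3 TPM. HNRNPC, which binds uridine tracts and keeps cryptic exons out of mRNA, had 48.3 and 49.0 TPM against 161 and 117 TPM. HNRNPA0, another binder of AU-rich elements and the lowest of the group, had 1.19 and 1.68 TPM against 4.78 and 3.20 TPM. Fold differences in mean TPM were 8.68 for HNRNPA1, 7.54 for HNRNPA2B1, 6.35 for HNRNPA3, 5.89 for HNRNPD, 2.86 for HNRNPC and 2.78 for HNRNPA0, lower in differentiated cells in each case.

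On the log2 scale HNRNPA1 differed by -3.10 ± 0.33 (limma adjusted p = 1.33e-05), HNRNPA2B1 by -2.84 ± 0.37 (adjusted p = 5.48e-05), HNRNPA3 by -2.60 ± 0.35 (adjusted p = 7.89e-05) and HNRNPD by -2.47 ± 0.36 (adjusted p = 0.000133; SE, n = 2 libraries a group). These 4 stayed called with any single library left out. HNRNPC differed by -1.48 ± 0.35 (adjusted p = 0.00452) and HNRNPA0 by -1.02 ± 0.37 (adjusted p = 0.0410). Both lost their call without differentiated replicate 1 (adjusted p from 0.141 to 0.472) or differentiated replicate 2 (adjusted p from 0.136 to 0.336), and HNRNPA0 also without undifferentiated replicate 1 (adjusted p = 0.0533). HNRNPAB, the remaining gene of this group, had 8.90 and 10.6 TPM in differentiated and 28.8 and 14 TPM in undifferentiated libraries, with no overlap but no call (log2 difference -0.98, adjusted p = 0.0766). It was called lower without undifferentiated replicate 2 (adjusted p = 0.00684), with median-of-ratios scaling (0.0257) and with the GC trend removed (0.00105).

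The hnRNP F/H proteins, which bind runs of guanines, differed among themselves. HNRNPH3 had 18.7 and 13.8 TPM in differentiated libraries, against 180 and 158 TPM in undifferentiated libraries. This was the largest fall of all 38 genes, a log2 difference of -3.31 ± 0.36 (SE, n = 2 libraries a group, limma adjusted p = 1.57e-05), and it ranked 106 among the falls of tested protein-coding genes. HNRNPH1 had 61.7 and 69.7 TPM against 346 and 226 TPM, and fell by 2.08 on the log2 scale (SE 0.36, adjusted p = 0.000445). HNRNPH2, an X-linked paralog of HNRNPH1, had 9.18 and 9.23 TPM against 10.8 and 7.52 TPM. Its log2 difference of 0.03 had a 95% interval of -0.80 to 0.85 (adjusted p = 0.964). For this row alone the interval leaves out changes as large as those of HNRNPH1 and HNRNPH3. A readthrough gene that shares sequence with HNRNPH2 had 3.80 and 0 TPM in differentiated libraries, against 6.23 and 16.0 TPM in undifferentiated libraries. HNRNPF had 16.9 and 19.1 TPM against 43.3 and 26.2 TPM, with no overlap and no call (log2 difference -0.87, adjusted p = 0.0894). HNRNPF was called lower without undifferentiated replicate 2 (adjusted p = 0.0104), with median-of-ratios scaling (0.0397) and with the GC trend removed (0.0194). HNRNPH3 stayed called with any library left out, whereas HNRNPH1 had an adjusted p of 0.0705 without differentiated replicate 1 and 0.0561 without differentiated replicate 2.

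**Figure D2:**
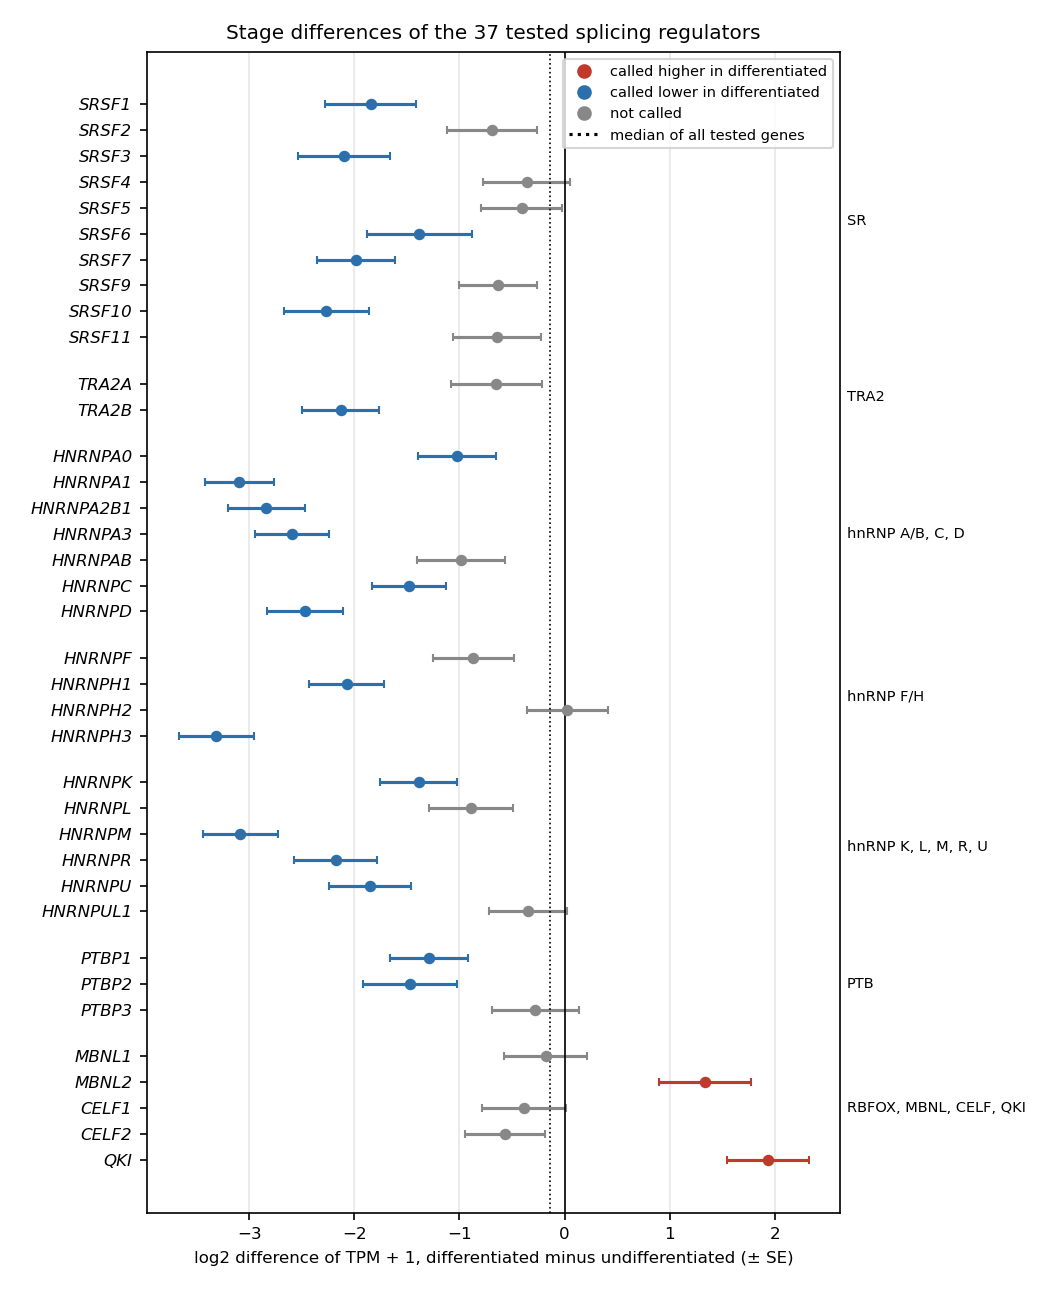
Log2 difference of TPM + 1, differentiated minus undifferentiated, for the 37 tested regulators, with standard errors from limma; blue points were called lower, red points higher and grey points neither, and the dotted line is the median of all tested genes. The hnRNP genes reach -3.31 (HNRNPH3), HNRNPH2 lies at 0.03, and QKI at 1.93 and MBNL2 at 1.34 are the only red points.

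Among the hnRNP K, L, M, R and U genes, 4 of 6 fell. HNRNPM, known in mouse macrophages as a repressor of the splicing of innate immune transcripts, had 12.02 and 12.66 TPM in differentiated libraries, against 111 and 113 TPM in undifferentiated libraries. Neither stage spread, and the log2 difference was -3.09 ± 0.35 (SE, n = 2 libraries a group, limma adjusted p = 2.31e-05), a call kept with any library left out. HNRNPR had 15.5 and 13.7 TPM against 94.2 and 51.2 TPM. HNRNPU, a nuclear scaffold protein that binds both RNA and chromatin, had 33.4 and 25.8 TPM against 146 and 80.5 TPM. HNRNPK, a binder of cytosine-rich RNA and DNA, had 55.8 and 54.4 TPM against 184 and 116 TPM. In these 3 the lower undifferentiated library was still more than the higher differentiated one. Their log2 differences were -2.18 ± 0.40, -1.85 ± 0.39 and -1.39 ± 0.36, with adjusted p of 0.000677, 0.00203 and 0.00801 in that order. All 3 lost their call without differentiated replicate 1 (adjusted p from 0.083 to 0.173) or differentiated replicate 2 (adjusted p from 0.0944 to 0.181). HNRNPL, which binds CA repeats and represses exons of CD45 in T cells, had 13.9 and 16.5 TPM against 39.6 and 21.1 TPM (adjusted p = 0.0956), and was called lower without undifferentiated replicate 2 (0.00927), with median-of-ratios scaling (0.0388) and with the GC trend removed (0.00264). HNRNPUL1, a relative of HNRNPU, had 30.5 and 33.0 TPM against 49.9 and 33.2 TPM (adjusted p = 0.484). For HNRNPUL1 the higher differentiated library was at almost the same level as undifferentiated replicate 2.

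Counted together, 12 of 17 hnRNP genes and 6 of 12 SR and TRA2 genes were called lower, with median log2 differences of -1.85 and -1.04. The median over all 37 tested regulators was -1.29, and over all 10180 tested genes it was -0.14. The difference between the 2 families was not tested. With no filter on low values, which put 29186 genes into the test, 8 regulators stayed called and the other 14 did not (adjusted p from 0.0512 to 0.328). Of all genes in that test 1.96% were called lower and 2.35% higher. Leaving out either differentiated library ended most calls, of the regulators and of all tested genes alike. The median of the regulators was -1.19 without differentiated replicate 1 and -1.30 without differentiated replicate 2. Over all tested genes it was -0.12 and -0.16.

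Of the PTB proteins, which bind pyrimidine tracts and repress exons, PTBP1 and PTBP2 fell. PTBP1 had 23.5 and 27.4 TPM in differentiated libraries, against 77.7 and 51.9 TPM in undifferentiated libraries. PTBP2, the paralog best known from neurons, whose transcript PTBP1 represses, had 2.26 and 1.58 TPM against 11 and 4.36 TPM. Log2 differences were -1.29 ± 0.37 for PTBP1 (limma adjusted p = 0.0137) and -1.47 ± 0.45 for PTBP2 (adjusted p = 0.0182; SE, n = 2 libraries a group). The calls did not hold without differentiated replicate 1 (adjusted p from 0.257 to 0.273) or differentiated replicate 2 (adjusted p from 0.192 to 0.378). PTBP3, the paralog found mainly in blood cells, had 6.16 and 8.01 TPM against 12.2 and 6.18 TPM. Its stages overlapped, and its log2 difference of -0.28 had a 95% interval of -1.18 to 0.62 (adjusted p = 0.630).

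QKI and MBNL2 were the regulators that rose. QKI, a STAR-family protein that controls exon use and the formation of circular RNAs and is known from human monocytes maturing into macrophages, had 76.3 and 79.8 TPM in differentiated libraries, against 26.5 and 14.6 TPM in undifferentiated libraries. Its log2 difference was 1.93 ± 0.39 (SE, n = 2 libraries a group, limma adjusted p = 0.00137), a 3.80-fold higher mean. It was the second most abundant of the 38 in both differentiated libraries and ranked 27 and 26 in the undifferentiated ones. As a share of the set's TPM it took 9.54% and 9.92% against 0.715% and 0.563%. MBNL2, a muscleblind protein that binds YGCY sequences and is trapped by CUG repeats in myotonic dystrophy, had 6.57 and 5.64 TPM against 3.18 and 0.88 TPM, a 3.01-fold higher mean (log2 difference 1.34 ± 0.44, adjusted p = 0.0268). In both genes each differentiated library was above each undifferentiated one. Without differentiated replicate 1 the adjusted p was 0.115 for QKI and 0.372 for MBNL2, and without differentiated replicate 2 it was 0.121 and 0.317. Both genes stayed called under every other scaling.

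The other regulators of this group were not called. MBNL1, the main muscleblind protein of blood cells, had 17.9 and 18.4 TPM in differentiated and 27.5 and 15.5 TPM in undifferentiated libraries. The interval of its log2 difference of -0.18 ran from -1.03 to 0.68 (adjusted p = 0.753). CELF1, which binds GU-rich elements, had 4.42 and 5.05 TPM against 8.45 and 4.92 TPM (adjusted p = 0.473), with overlapping stages. CELF2, a related protein abundant in lymphocytes, had 14.7 and 13.1 TPM against 25.96 and 17.06 TPM without overlap (log2 difference -0.57, adjusted p = 0.256; 0.0292 without undifferentiated replicate 2). RBFOX2 had 0.51 and 0.47 TPM against 0.34 and 0.25 TPM and stayed below the filter of 1 TPM in 2 libraries, so it was not tested. With TPM rescaled over protein-coding genes it passed the filter and was called higher (adjusted p = 0.0391), but it was not called with no filter (0.494) or with TPM rescaled without genes above 1000 TPM (0.115).

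A ratio of plain TPM between related genes within a library does not move with the scaling of that library, while a ratio of TPM + 1 can. HNRNPH1 was 6.73 and 7.55 times as abundant as HNRNPH2 in differentiated libraries, against 32.1 and 30.0 times in undifferentiated libraries. The readthrough gene that shares sequence with HNRNPH2 is not counted in this ratio. MBNL1 exceeded MBNL2 by 2.73 and 3.27 times against 8.66 and 17.6 times. PTBP1 exceeded PTBP3 by 3.82 and 3.42 times against 6.36 and 8.40 times. In these pairs and in SRSF1 to SRSF9 (0.53 and 0.436 against 2.0 and 0.736) both differentiated ratios were below both undifferentiated ones. Conversely, TRA2A to TRA2B (0.562 and 0.445 against 0.239 and 0.131) and SRSF4 to SRSF6 (0.913 and 0.994 against 0.332 and 0.601) had the higher ratios in differentiated cells. The stages overlapped for PTBP1 to PTBP2, CELF1 to CELF2, HNRNPA1 to HNRNPA2B1 and SRSF3 to SRSF7. Of 10 pairs, 4 were thus wholly lower, 2 wholly higher and 4 overlapping. Among single tested genes 39% lay wholly below and 31% wholly above. No share was computed over other gene pairs, so these counts are not read as a shift between related genes. An exact permutation test of 2 against 2 libraries, two-sided, cannot give a p below 0.33. The ratios are given as values and were not tested.

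**Figure D3:**
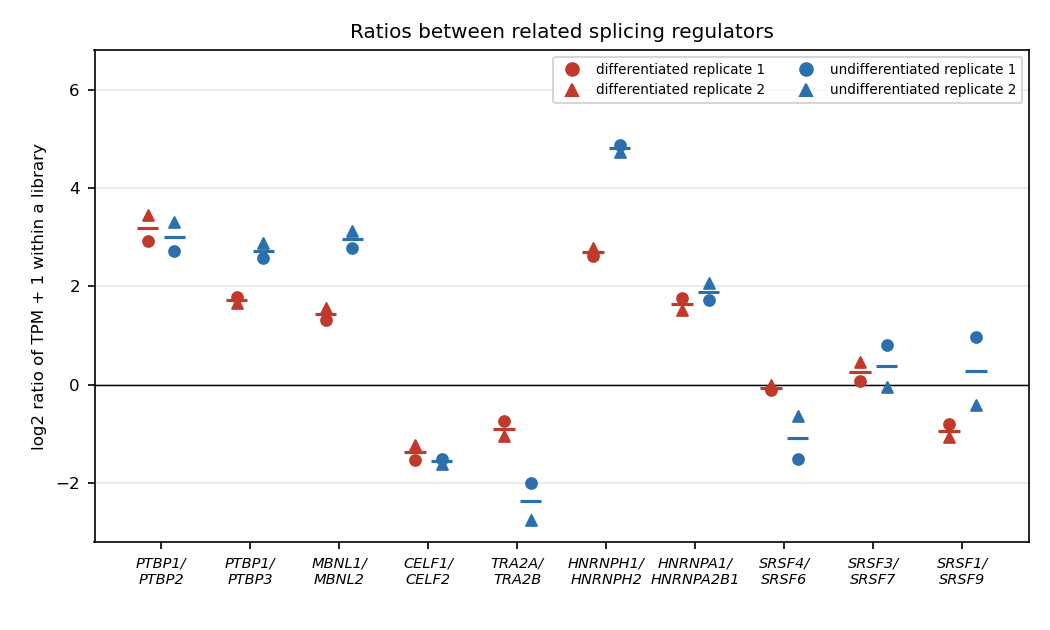
Log2 ratio of TPM + 1 between related regulators within each library, with red marks for differentiated and blue marks for undifferentiated libraries and a bar at each mean of 2 libraries. HNRNPH1/HNRNPH2 has means of 2.71 in differentiated and 4.81 in undifferentiated libraries, while HNRNPA1/HNRNPA2B1 overlaps at means of 1.63 and 1.89.

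Other parts of the splicing machinery were read from the same fit. Of 113 tested rows in 9 lists, 47 were lower in differentiated cells and none was called higher, with a median log2 difference of -0.86. MATR3 held 2 of these rows, both lower, and each row is counted as a gene here and below. Under 5 of the alternative scalings and corrections 4 to 12 of the 113 to 119 rows tested were called higher, CLK1 each time. Of all genes tested in those 5 settings, 24.9% to 34.3% were called higher. The Sm and LSm proteins, which form the rings around spliceosomal RNAs, had 13 of 15 genes lower and a median of -1.90. SNRPD1 had 11.4 and 15.4 TPM in differentiated libraries, against 378 and 296 TPM in undifferentiated libraries, a 25.1-fold lower mean (log2 difference -4.56 ± 0.36, SE, n = 2 libraries a group, limma adjusted p = 1.55e-06). SNRPG had 10.3 and 7.36 TPM against 91.5 and 84.6 TPM (adjusted p = 2.38e-05). Both stayed called with any library left out. Of U1 snRNP proteins 3 of 8 were lower, SNRPC among them (log2 difference -1.93). For U2 snRNP, U2AF and SF1 the count was 8 of 15. U2AF1, the subunit that reads the AG at the 3′ splice site, had 12.4 and 10.6 TPM against 112 and 94.0 TPM (adjusted p = 2.86e-05), while its partner U2AF2 had 20.7 and 23.4 TPM against 21.1 and 17.6 TPM (adjusted p = 0.728) and was called higher with rescaling over protein-coding genes. SNRPB2 followed U2AF1 with -2.33.

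The remaining lists are read against the 22.8% of all tested genes that were called lower, and the lists were not tested against each other. The U4/U6.U5 tri-snRNP list had 2 of 16 genes lower, PPIH (at 2.11 and 1.79 TPM in differentiated and 11.9 and 9.82 TPM in undifferentiated libraries) and SNRNP40 (-1.20), with a list median of -0.65. The Prp19 complex and spliceosomal helicases had 2 of 14 lower, DHX15 (-1.54) and BCAS2 (-1.40), with a median of -0.30. Among the kinases that phosphorylate SR proteins only SRPK1 of 8 was called, at 3.22 and 2.05 TPM in differentiated and 23.5 and 13.8 TPM in undifferentiated libraries (log2 difference -2.41 ± 0.41, adjusted p = 0.000422). The other 7 kinases had log2 differences from -0.61 to 0.59. Of the SR-related and exon junction proteins 4 of 10 were lower, with the exon junction partners MAGOH (-2.41) and RBM8A (-1.84) first. Without differentiated replicate 1 the adjusted p of SRPK1 was 0.0702 and that of MAGOH 0.0542, and without differentiated replicate 2 they were 0.106 and 0.0652. SNRPC, SNRPB2, PPIH, SNRNP40, DHX15, BCAS2 and RBM8A likewise lost their calls without either differentiated library (adjusted p from 0.0628 to 0.4).

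Further hnRNP and general RNA-binding proteins had 12 of 25 tested rows lower, led by RBMX (-2.65) and NONO (-2.52). NONO stayed called with any library left out, and RBMX had an adjusted p of 0.0519 without differentiated replicate 1. Of 19 regulators known mainly from other tissues, such as NOVA1, ESRP1 and RBM20, 17 were below 1 TPM in all 4 libraries. Both tested genes of that list were lower. MBNL3 had 3.69 and 3.13 TPM in differentiated and 14 and 9.77 TPM in undifferentiated libraries (log2 difference -1.53 ± 0.39, adjusted p = 0.00654). KHDRBS3 had 0.49 and 0.63 TPM against 6.5 and 5.87 TPM (log2 difference -2.20 ± 0.35, adjusted p = 0.000262). It passed the filter of 1 TPM in 2 libraries only through the undifferentiated libraries, so a fall was favoured. The calls of MBNL3 and KHDRBS3 were lost without differentiated replicate 1 (adjusted p = 0.192 and 0.111) or differentiated replicate 2 (adjusted p = 0.245 and 0.0966). So MBNL3 was lower where its paralog MBNL2 was higher.

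**Figure D4:**
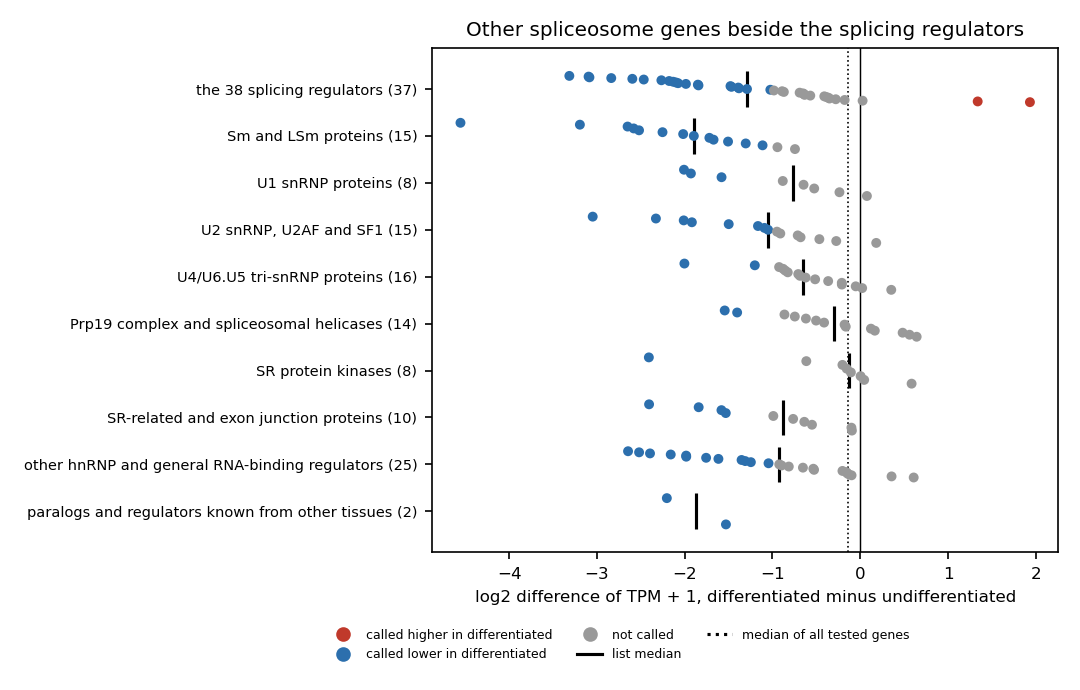
Log2 difference of TPM + 1, differentiated minus undifferentiated, of each tested gene of the regulators (top) and of 9 other splicing lists, with the number of tested rows in brackets, list medians as black bars and the median of all tested genes (-0.14) as a dotted line. The Sm and LSm list has a median of -1.90 and the SR protein kinases -0.13.

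Reads of near-identical copies can be split between rows. Pseudogene rows named after a regulator numbered 122, and they summed to 10.2 and 8.21 TPM in differentiated libraries and 45.6 and 23.3 TPM in undifferentiated libraries. HNRNPA1 had 75 of them, worth 5.14% and 4.75% of its own TPM against 3.01% and 1.88%. HNRNPA3 had 16, worth 14.5% and 3.81% against 8.92% and 4.62%. The libraries were stranded, but the sources used here do not give whether counting used the strand, and genes that overlap another are less certain. HNRNPUL1 overlaps TGFB1 on the opposite strand, which had 56.5 and 72.5 TPM against 4.88 and 3.46 TPM. HNRNPA2B1 overlaps CBX3, at 12.1 and 11.8 TPM against 68.9 and 37.1 TPM. HNRNPH2 shares its strand and sequence with the readthrough gene RPL36A-HNRNPH2, listed at 3.80 and 0 TPM against 6.23 and 16.0 TPM. The part of these overlaps in the results was not tested.

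Because TPM are shares, the scaling of the libraries bears on every difference. The median log2 difference of all tested genes was -0.14 as deposited, 0.04 with median-of-ratios size factors, -0.08 with quantiles made equal, 0.37 with TPM rescaled over protein-coding genes and 0.24 with genes above 1000 TPM taken out. The median of the regulators was lower than that of all genes by 1.15 as deposited and by 0.79 to 1.22 under the others. The calls of all genes were 44.8% higher as deposited, 65.6% with protein-coding rescaling and 61.2% without genes above 1000 TPM. Regulators called lower numbered 23 with median-of-ratios size factors, 20 with quantiles made equal, 19 with protein-coding rescaling and 18 without genes above 1000 TPM. Beside 22.8% as deposited, 26%, 29%, 18% and 16% of all tested genes were called lower under these 4 scalings, in that order. No called regulator changed sign under any of them. SRSF4, SRSF5, HNRNPUL1, PTBP3, MBNL1 and CELF1, none of them called, did change sign under at least 1. HNRNPA1 could not be followed without genes above 1000 TPM, since it was 1 of those genes.

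**Figure D5:**
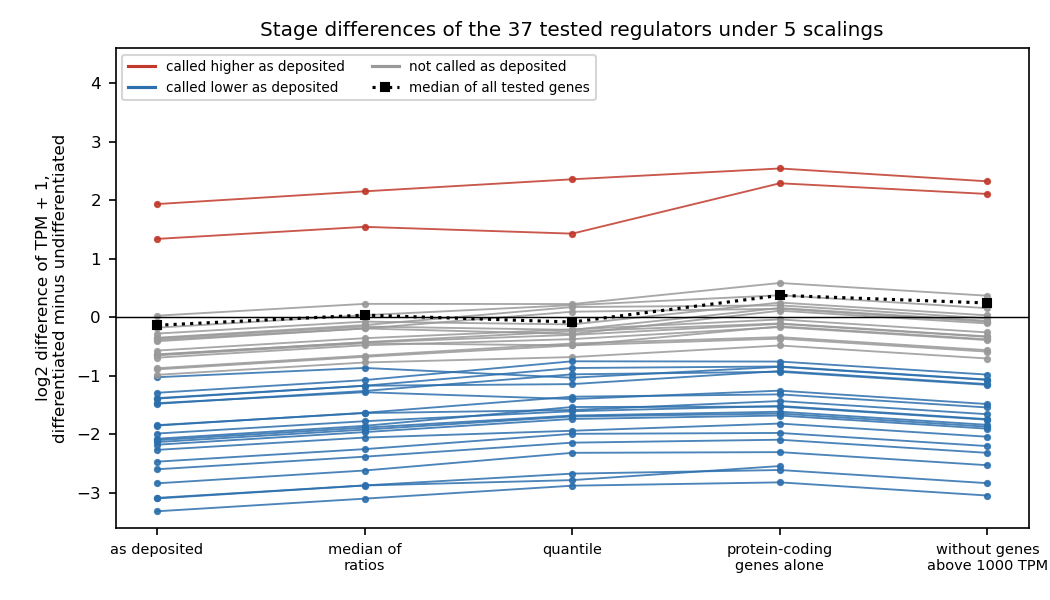
Log2 difference of TPM + 1, differentiated minus undifferentiated, of the 37 tested regulators as deposited and under 4 other scalings, 1 line a gene, coloured by the call as deposited, with the median of all tested genes as black squares. Blue lines stay below 0 and red lines above 0 throughout, and the line of HNRNPA1 ends before the last scaling, which leaves it out.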

How the data were processed

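Total RNA from 2 differentiated and 2 undifferentiated BLaER1 samples was made into stranded libraries, per the labels' protocols. The submitters' processing notes name Trimmomatic, STAR and RSEM. The sources used here give no version, setting, build or annotation. The authors deposited 1 table of TPM with 58302 rows, in which every library sums to 1000000 TPM. TPM hold no depth, so no counting error or detection limit was computed. All 4 value columns were used. Rows without a gene type or GC share in GENCODE 29 were kept (58039 identifiers matched).

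The 10180 genes that reached 1 TPM in 2 or more libraries were tested in limma 3.58.1 (R 4.3.3) on log2(TPM + 1), with eBayes and a mean trend, two-sided, and p-values were adjusted by Benjamini and Hochberg over all of them. The residual degrees of freedom were 2 and the prior ones 10.9. The code was tested on simulated data with 200 changed genes. Adjusted p-values below 0.05 were calls. Alternatives were another pseudocount, filters, scalings, a GC correction, eBayes without trend, leaving out each library, and the replicate number as a block. With 1 library left in a group, that library is assumed to vary like the others.

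All 38 members are named. Of each other splicing list up to 2 called genes with the largest difference were named, except 1 gene that is not reported here, and U2AF2 and CLK1 were added after their values were seen. The members and all lists were chosen with earlier results of these data known. No protein sequences were used here.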

Additional observations from a re-analysis of the deposited data

How the results depend on the processing

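The direction of every called regulator held under each of the 14 alternatives that tested it. The 6 calls kept under all alternatives that tested the gene were HNRNPA1, HNRNPA2B1, HNRNPA3, HNRNPD, HNRNPH3 and HNRNPM. SRSF7 and TRA2B were lost only when a differentiated library was left out.

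With no filter on low values 1260 genes were called, 687 higher and 573 lower, with 8 regulators lower, 0 higher, and 23 genes of the other splicing lists. SRPK1 (adjusted p = 0.0565), MBNL3 (0.074), BCAS2 (0.102), SNRNP40 (0.103) and DHX15 (0.149) were then not called. At a minimum of 5 TPM 2436 of 4511 tested genes were called, 1016 higher (22.5%) and 1420 lower (31.5%). Median-of-ratios scaling gave 2915 genes higher. Rescaling over protein-coding genes gave 4102 higher of 11945 tested. Without genes above 1000 TPM 6436 of 15807 tested genes were called, 3936 higher. The regulators' median was -0.87 with quantiles made equal and -0.80 with TPM rescaled over protein-coding genes. The GC correction gave 74 calls in the other lists and called 25 regulators lower, gaining SRSF2, SRSF9, HNRNPAB, HNRNPF and HNRNPL. Median-of-ratios scaling called 23 lower, gaining the last 3 of these. Of all genes tested, 31% were called lower with the GC correction and 26% with median-of-ratios scaling. Leaving out 1 library gave 1271 to 5652 genes, 934 to 2714 higher and 337 to 3818 lower, 6 to 31 regulators, 0 to 2 higher and 6 to 29 lower, 7 to 78 genes of the other lists, and a median of -1.58 to -0.79.

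MBNL1 reversed to 0.036 (median of ratios), 0.21 (quantile), 0.38 (protein-coding), 0.16 (without genes above 1000 TPM), 0.27 (GC) and 0.22 (without undifferentiated replicate 1), with -0.57 as its lowest value with 1 library left out. PTBP3 reversed to 0.25 (protein-coding), 0.033 (without genes above 1000 TPM), 0.19 (GC) and 0.16 (without undifferentiated replicate 1), with -0.72 as its lowest with 1 library left out. SRSF5 reached 0.10 (quantile) and 0.14 (protein-coding), HNRNPUL1 0.17 and 0.20 under the same, SRSF4 0.16 (protein-coding) and 0.074 (without undifferentiated replicate 1), and CELF1 0.11 (protein-coding). HNRNPH2 ran from -0.21 without undifferentiated replicate 2 to 0.26 without undifferentiated replicate 1. The stage difference of the log2 ratio of TPM + 1 was 0.18 for PTBP1/PTBP2 and -0.11 for SRSF3/SRSF7 with all libraries. For PTBP1/PTBP2 it was -0.10 without differentiated replicate 2 and -0.12 without undifferentiated replicate 1, up to 0.47 without undifferentiated replicate 2. For SRSF3/SRSF7 it was 0.08 without differentiated replicate 1 and 0.31 without undifferentiated replicate 1, down to -0.54 without undifferentiated replicate 2. With 0.1 TPM added in place of 1 TPM, the differences with all libraries were 0.50 for PTBP1/PTBP2 and -0.10 for SRSF3/SRSF7. In plain TPM PTBP1 was 10.4 and 17.3 times PTBP2 in differentiated libraries, against 7.06 and 11.9 times in undifferentiated libraries. PTBP2 had 2.26 and 1.58 TPM in differentiated libraries, so the added 1 TPM weighs on its ratio. The cause was not tested.

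SRSF6 lost its call under 5 TPM (adjusted p = 0.058), protein-coding rescaling (0.0906), rescaling without genes above 1000 TPM (0.101) and eBayes without trend (0.058). HNRNPA0 lost it with a pseudocount of 0.1 (0.05).

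The differences between replicates 1 and 2 correlated at -0.02 across genes between the stages, so no shared effect of the replicate number was seen. This cannot show whether the samples were paired. With the replicate block 3766 genes were called, 1730 higher and 2036 lower, with 21 regulators, 19 lower and 2 higher, and 41 genes of the other lists. HNRNPA0 (adjusted p = 0.0759) and, among the other genes named, SNRNP40 (0.0584) were lost.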
